A study of Mus musculus with 27 samples.

Results

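The 9 visual cycle genes described here are Rbp3, Abca4, Rdh12, Rdh8, Rlbp1, Rgr, Rpe65, Lrat and Rdh5. Each was found by its symbol as 1 of the 38168 features of the deposited expression table, and each had 1 entry, so that all 9 were measured. RNA was sequenced from whole retina of wild type C57BL/6J mice at 7 ages, with 3 libraries at embryonic day 14 (E14), 3 at E17, 4 at postnatal day 1 (P1), 3 at P6, 4 at P15, 4 at P28 and 6 at P60. The mice carried no transgene, received no treatment and were kept in a light and dark cycle, with retinas taken in the light phase. The labels give 3 retinas per library. The methods of the study describe pooled retinas of mixed sex at E14, E17 and P1, pooled retinas of males at later ages, and single males for most P60 libraries without saying which. The p-values below therefore measure the spread between these libraries, and pooling may have narrowed it before P60.

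Vision starts when light turns the bent chromophore of the visual pigments into its straight, all-trans form, and the visual cycle turns it back. Within the photoreceptor, ABCA4 moves retinal that is bound to phosphatidylethanolamine across the disc membrane, and the dehydrogenases RDH8 and RDH12 reduce retinal to retinol. RBP3, a secreted carrier between the layers, takes retinoids across the space to the pigment epithelium, where LRAT makes retinyl esters, RPE65 turns them into the bent alcohol and RDH5 oxidises that to the bent aldehyde. RLBP1 binds bent retinoids in both Müller glia and pigment epithelium, and RGR, an opsin that converts retinal in light, is known in both as well. The pigment epithelium is a separate sheet behind the retina, and its genes are known from that sheet. Accordingly the 9 genes are described as 4 of photoreceptors (Rbp3, Abca4, Rdh12, Rdh8), 2 of Müller glia and pigment epithelium (Rlbp1, Rgr) and 3 of pigment epithelium (Rpe65, Lrat, Rdh5). In whole tissue, fewer cells of a type and less RNA per cell cannot be told apart.

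Values are CPM, the reads of a gene scaled to a fixed total per library. Reads assigned to the features of the deposited table numbered 7076646 to 11330762 per library, fewer than the study states were sequenced. On these totals 1 read was worth 0.0882 to 0.141 CPM. The floor below which no level was read, 3 reads, was worth 0.265 to 0.424 CPM. The labelled tissue was checked with a list of 14 photoreceptor markers, whose summed level was 121 to 261 CPM in the 6 embryonic libraries and 23149 to 37052 CPM in the 14 libraries of P15, P28 and P60. These 14 later libraries are called mature here.

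In the mouse genome build GRCm38 the genes lie on 6 chromosomes, as protein-coding genes with 2 to 50 exons in their longest coding transcript (GENCODE annotation). On the plus strand are Rbp3 (gene ID 19661, chr14:33954003-33964216, 4 exons), Abca4 (gene ID 11304, chr3:122044443-122180123, 50 exons), Rdh12 (gene ID 77974, chr12:79208914-79222665, 7 exons), Rdh8 (gene ID 235033, chr9:20818503-20826117, 6 exons) and Rpe65 (gene ID 19892, chr3:159599175-159625321, 15 exons). On the minus strand are Rlbp1 (gene ID 19771, chr7:79374870-79387048, 9 exons), Rgr (gene ID 57811, chr14:37034909-37048964, 6 exons), Lrat (gene ID 79235, chr3:82892579-82903973, 2 exons) and Rdh5 (gene ID 19682, chr10:128913593-128922888, 5 exons). Rdh5 shares 257 exon bases, 20.4% of its transcript, with Bloc1s1 on the same strand, so reads there cannot be given to 1 of the pair and values of Rdh5 are uncertain. Bloc1s1 was looked up after this overlap was seen. The other 8 genes share no exon base with a neighbour.

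The letters before the start sites were read from RefSeq (GRCm38.p6), which held a promoter entry for each of the 9 genes. TAATCC, or GGATTA on the other strand, is the core of the motif bound by the photoreceptor and pigment epithelium factors CRX and OTX2. It was present within 250 bases before the start of 4 of the 9 genes, against 7.21% of 27025 gene symbols and 6.25% of 32851 promoters. The 200 bases before the RefSeq start sites of those 4 are shown because they span known photoreceptor, Müller and pigment epithelium genes, with the motif in capitals, 5′ to 3′ on the strand of the gene. They lie at chr14:33953803-33954002 (+) for Rbp3, chr3:122044260-122044459 (+) for Abca4, chr14:37049015-37049214 (-) for Rgr and chr3:159598981-159599180 (+) for Rpe65.
Rbp3: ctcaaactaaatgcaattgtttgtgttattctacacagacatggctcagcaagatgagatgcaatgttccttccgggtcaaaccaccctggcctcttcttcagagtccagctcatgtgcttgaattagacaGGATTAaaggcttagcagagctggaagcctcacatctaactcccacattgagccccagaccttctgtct
Abca4: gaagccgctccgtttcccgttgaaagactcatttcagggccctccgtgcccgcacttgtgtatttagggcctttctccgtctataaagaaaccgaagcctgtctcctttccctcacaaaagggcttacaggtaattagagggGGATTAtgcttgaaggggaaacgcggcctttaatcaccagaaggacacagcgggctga
Rgr: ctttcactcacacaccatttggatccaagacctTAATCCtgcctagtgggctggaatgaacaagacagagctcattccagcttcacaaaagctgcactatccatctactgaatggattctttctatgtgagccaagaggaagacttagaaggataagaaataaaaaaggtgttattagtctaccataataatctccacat
Rpe65: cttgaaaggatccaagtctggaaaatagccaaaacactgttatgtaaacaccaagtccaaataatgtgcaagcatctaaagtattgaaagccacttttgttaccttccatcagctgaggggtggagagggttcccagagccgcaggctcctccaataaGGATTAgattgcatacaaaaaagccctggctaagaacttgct
Counted back from the start site, the first motif letter was at position -69 in Rbp3, -58 in Abca4, -167 in Rgr and -42 in Rpe65. The 5 other genes held neither form in this window, which says only that these letters were not there. For Rdh5 the RefSeq start site lies 3591 bases inside the start of the GENCODE gene, so its window is not at that start. A different motif, the E-box CATGTG or CACATG, which does not overlap the first in these windows, was present 2 times before Rbp3 and 1 time each before Rlbp1 and Rpe65. It was present for 13.8% of gene symbols and in 12.3% of all promoters. Such matches describe letters and are not binding sites.

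The first comparison asked how far each gene differed between the mature and the embryonic retina. Of the 9 genes, 8 rose by the rule used throughout, an adjusted p under 0.05 and a difference of at least 1 on the log2(CPM + 1) scale (limma, Benjamini-Hochberg adjustment over 31760 features), against 14.9% of all features called higher and 31.0% called in either direction. The same 8 had every mature library above every embryonic one, a pattern that 17.4% of all features showed. The median difference was 4.87 over the 9 genes and -0.06 over all features. Abca4, Rdh12 and Rbp3 of the photoreceptor genes differed by 5.91 to 7.94 on this scale, Rlbp1 by 4.87, and Rgr, Lrat and Rpe65 by 2.52 to 3.18, while Rdh8 is given below as a bound and Rdh5 did not reach the minimum. Because 1 CPM was added before taking logs, these differences understate the change of genes at low level.

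Rbp3 was already present at E14, with 24.6, 21.2 and 21.2 CPM in the 3 libraries. It gave 129.9, 145 and 148 CPM at E17, 431, 395, 389.8 and 443 CPM at P1, 1940.3, 1944 and 1848 CPM at P6 and 2555, 2718, 2750.3 and 2994 CPM at P15. The level was 3528, 3623, 3547 and 3301 CPM at P28, and at P60 the lowest, median and highest of 6 libraries were 3363, 4303 and 5435 CPM. No library of an age reached into the range of the age before until P60, where the lowest of its libraries lay within the P28 range. The difference between mature and embryonic libraries was 5.91 ± 0.064 (SE, n = 14 and 6, adjusted p = 9.53e-36), and the mean CPM was 44.5 times higher.

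Abca4 followed a later course. Its libraries gave 3.30, 3.48 and 3.37 CPM at E14, 3.27, 1.94 and 1.86 CPM at E17 and 10.8, 12.5, 10.9 and 9.94 CPM at P1. They reached 243, 209 and 207 CPM at P6, 783, 795, 778 and 831 CPM at P15 and 951, 929, 924 and 925 CPM at P28, with a P60 range of 931 to 1271 CPM around a median of 1101. Every P1 library was above every embryonic one, and the libraries of P6 and P15 were each apart from those before. Abca4 rose by 7.94 ± 0.068 between embryonic and mature libraries (SE, adjusted p = 1.52e-38), with a mean 335 times the embryonic one.

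The reductases Rdh12 and Rdh8 were low before birth. Rdh12 stood at 0.800 to 1.84 CPM in the 6 embryonic libraries, at 1.35, 3.28, 2.94 and 3.55 CPM at P1, and at 107, 79.5 and 78.9 CPM at P6. At P15 it gave 269, 269, 300.5 and 329.7 CPM. The 4 P28 libraries, at 224, 239.7, 236 and 207 CPM, all lay below those of P15, and the P60 range of 209 to 278 CPM overlapped both. Rdh12 rose by 6.78 ± 0.11 (SE, adjusted p = 1.18e-31) between embryonic and mature libraries.

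Rdh8 had 0 reads in all 6 embryonic libraries, and 5, 3, 4 and 0 reads in the 4 P1 libraries. It gave 12.3, 12.0 and 8.96 CPM at P6, 36.3, 37.3, 37.7 and 31.5 CPM at P15, 24.4, 31.0, 26.5 and 23.4 CPM at P28 and 20.2 to 35.1 CPM around a median of 29.4 at P60. Every library from P6 on was therefore above every earlier one. Set against the floor of 3 reads per library, the mature mean was at least 99.2-fold higher than the embryonic one (adjusted p = 6.14e-27). No fitted difference between these groups is given because it would depend on the added CPM.

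Rlbp1, the binding protein of bent retinoids in Müller glia and pigment epithelium, was measurable in every library. Its values were 1.20, 1.58 and 1.68 CPM at E14, 4.81, 6.09 and 6.32 CPM at E17, 23.2, 12.5, 21.1 and 25.6 CPM at P1 and 97.6, 92.1 and 88.9 CPM at P6. At P15 it gave 117, 116, 120.2 and 149.7 CPM, at P28 105, 109, 107 and 105 CPM, and at P60 a range of 96.1 to 157 CPM around a median of 127. The ages up to P15 did not overlap, whereas the P60 range spanned those of P15 and P28. Rlbp1 rose by 4.87 ± 0.10 (SE, adjusted p = 5.77e-28), with a mean 33.3 times the embryonic one.

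Rgr, the opsin of Müller glia and pigment epithelium, was far lower. It gave 1.0, 1.05 and 0.421 CPM at E14, 1.64, 0.971 and 1.66 CPM at E17, 3.68, 0.882, 3.05 and 4.26 CPM at P1 and 6.36, 5.84 and 5.52 CPM at P6. The mature values were 17.8, 29.6, 24.7 and 16.8 CPM at P15, 25.0, 19.8, 11.4 and 14.3 CPM at P28 and 8.53 to 28.2 CPM at P60, median 15.7. The 3 mature ages overlapped one another and stood above all earlier libraries. Rgr rose by 3.18 ± 0.20 (SE, adjusted p = 1.96e-15), with a mean 16.4 times the embryonic one. P1 replicate 2 was the lowest P1 library for both Rlbp1 and Rgr.

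Of the pigment epithelium genes, Rpe65, the isomerohydrolase, was below the floor in all but 1 embryonic library, with 0, 4 and 1 reads at E14 and 1, 0 and 0 reads at E17. At P1 it had 1, 0, 0 and 0 reads, and at P6 9, 13 and 2 reads. At P15 it gave 4.28, 10.3, 5.48 and 6.19 CPM, at P28 6.93, 7.02, 3.92 and 5.15 CPM, and at P60 4.85, 12.3, 1.76, 5.08, 3.16 and 2.33 CPM in replicates 1 to 6. Every mature library was above every earlier one, and replicate 2 of P60 was more than any other library of the series while replicate 3 was the lowest of the mature ones. The mature difference was 2.52 ± 0.22 (SE, adjusted p = 5.02e-12), and the mean CPM ratio of 53.6 rests on 6 embryonic reads in all.

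Lrat, which makes the retinyl esters that RPE65 uses, had 0 to 12 reads per embryonic library (up to 1.24 CPM), 0.355 to 0.630 CPM at P1 and 0.565, 0.649 and 0.689 CPM at P6. At P15 it gave 8.30, 16.2, 12.7 and 13.3 CPM, at P28 8.66, 9.41, 7.98 and 6.79 CPM, and at P60 7.08, 16.8, 2.51, 5.52, 5.36 and 4.53 CPM in replicates 1 to 6. As for Rpe65, the mature libraries were all above the earlier ones, P60 replicate 2 was the highest and P60 replicate 3 the lowest of them. Lrat rose by 2.81 ± 0.20 (SE, adjusted p = 5.42e-14), with a mean 22.0 times the embryonic one.

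Rdh5, the dehydrogenase that completes the bent aldehyde, was the one gene of the 9 that was not called. It was measured at 1.68 to 2.85 CPM in the embryonic libraries, 1.96, 2.27, 2.49 and 4.85 CPM at P1 and 2.54, 3.14 and 3.72 CPM at P6. The mature values were 3.61, 6.58, 4.99 and 5.77 CPM at P15, 4.80, 4.49, 2.84 and 3.65 CPM at P28 and 3.18 to 6.73 CPM at P60, median 4.98. In 13 of the 14 mature libraries it was above every embryonic one. The difference of 0.72 ± 0.15 (SE, adjusted p = 1.09e-04) was under the minimum of 1, while edgeR on recovered reads gave 1.06 (adjusted p = 1.97e-05) and called it. Bloc1s1, which shares some of its exon bases, had age means of 5.84, 6.65, 5.74, 5.38, 3.67, 3.87 and 4.64 CPM from E14 to P60. Its lowest age mean was thus at P15, where Rdh5 had its highest, 5.24 CPM.

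**Figure D1:**
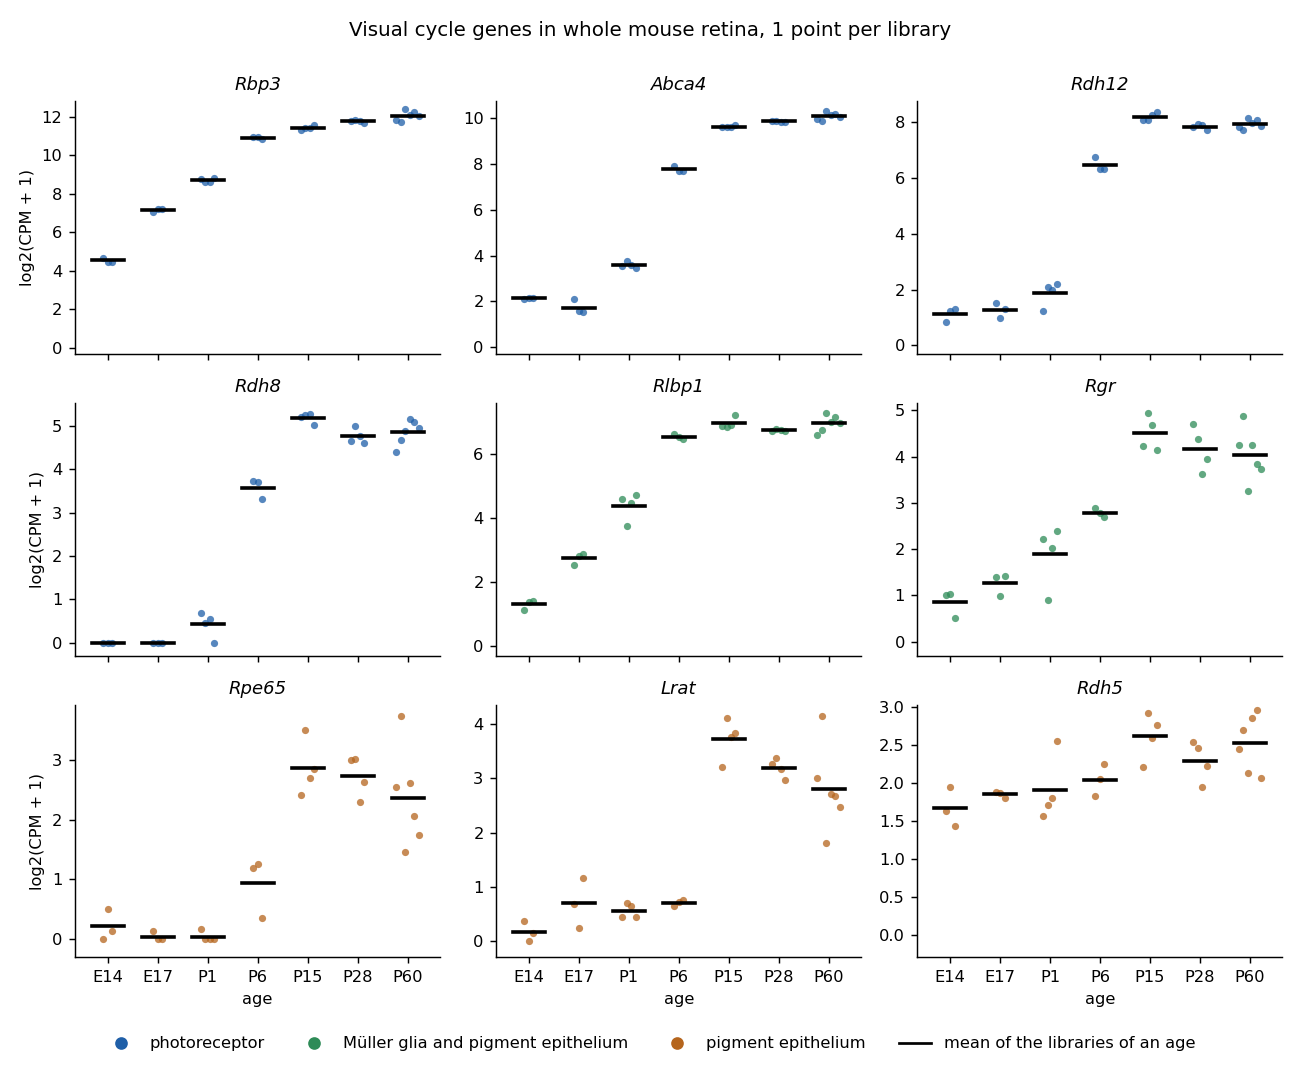
Each panel shows 1 of the 9 genes, with log2(CPM + 1) on the vertical axis, the 7 ages on the horizontal axis, 1 point per library, a bar at the mean of each age and the colour giving the known site. Rbp3 starts at 21.2 to 24.6 CPM at E14, no library of Rpe65 or Lrat exceeds 1.41 CPM up to P6, and Rdh5 has the smallest difference between mature and embryonic libraries, 0.72.

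The steps between neighbouring ages showed when each gene rose. From E14 to E17, Rbp3 rose by 2.61 ± 0.11 (SE, adjusted p = 4.57e-18) and Rlbp1 by 1.43 ± 0.17 (adjusted p = 2.03e-07), so that 2 of the 9 genes were called higher against 2.90% of all features (3.60% were called in either direction). From E17 to P1, Rbp3 rose by 1.55 ± 0.10, Abca4 by 1.86 ± 0.11 and Rlbp1 by 1.64 ± 0.16 (adjusted p = 4.96e-13, 2.24e-14 and 6.96e-09), which made 3 of 9 against 1.23% of all features (1.84% in either direction). edgeR called 4 of 9 at this step, the further gene being Rdh8, which had 0 reads in every E17 library. The carrier Rbp3 and the binding protein Rlbp1 were thus the earliest of the set to be called.

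From P1 to P6, 5 of the 9 genes rose, all 4 photoreceptor genes and Rlbp1, against 6.30% of all features called higher and 13.0% called in either direction. The differences were 4.59 ± 0.16 for Rdh12, 4.20 ± 0.11 for Abca4, 3.16 ± 0.18 for Rdh8, 2.20 ± 0.10 for Rbp3 and 2.17 ± 0.16 for Rlbp1, with adjusted p of at most 1.17e-12. The Rdh8 value depends on the added CPM, since its P1 libraries held 0 to 5 reads. It ranged from 3.13 to 4.94 under other settings, so its place in this order is not fixed. Rgr, at 0.90 ± 0.31 (adjusted p = 0.0215), and Rpe65, at 0.89 ± 0.34 (adjusted p = 0.0359), fell short of the minimum, and edgeR called both, which made 7 of 9. Lrat and Rdh5 differed by 0.15 and 0.13.

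From P6 to P15, 6 of the 9 genes rose, against 4.74% of all features called higher and 8.05% called in either direction. The ester-forming enzyme Lrat had the greatest difference, 3.03 ± 0.31 (SE, adjusted p = 3.77e-09), followed by Rpe65 at 1.93 ± 0.34 (adjusted p = 3.46e-05), Abca4 at 1.86 ± 0.11, Rdh12 and Rgr at 1.72 each and Rdh8 at 1.61 ± 0.18. For Lrat and Rgr this was the largest of the 6 steps. For Rpe65 it was so on this scale, whereas edgeR gave 4.53 for P1 to P6, where P1 held 1 read in all, and 2.75 for P6 to P15. Rbp3 at 0.53 (adjusted p = 9.83e-05), Rlbp1 at 0.42 (adjusted p = 0.0427) and Rdh5 at 0.58 (adjusted p = 0.0623) were under the minimum. For Lrat, Rpe65 and Rgr this was also the first step that limma called, and no test compared the timing of these genes with that of the photoreceptor genes.

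After P15 none of the 9 genes was called. Between P15 and P28 limma called 0 of 9 (0.384% of all features in either direction), with 4 at an unadjusted p under 0.05, and edgeR called 0. Between P28 and P60 limma called 0 of 9 (0.453% of all features), with 2 at an unadjusted p under 0.05, and edgeR called 0. Rbp3 passed the adjusted p alone at both steps, at 0.35 ± 0.092 (adjusted p = 0.0334) and 0.28 ± 0.084 (adjusted p = 0.0299), and leaving out 1 library took these to as much as 0.110 (without P15 replicate 1) and 0.0808 (without P28 replicate 4). Mean levels from P15 through P28 to P60 were 12.6, 8.21 and 6.96 CPM for Lrat, 6.55, 5.76 and 4.91 CPM for Rpe65 and 35.7, 26.3 and 28.7 CPM for Rdh8.

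**Figure D2:**
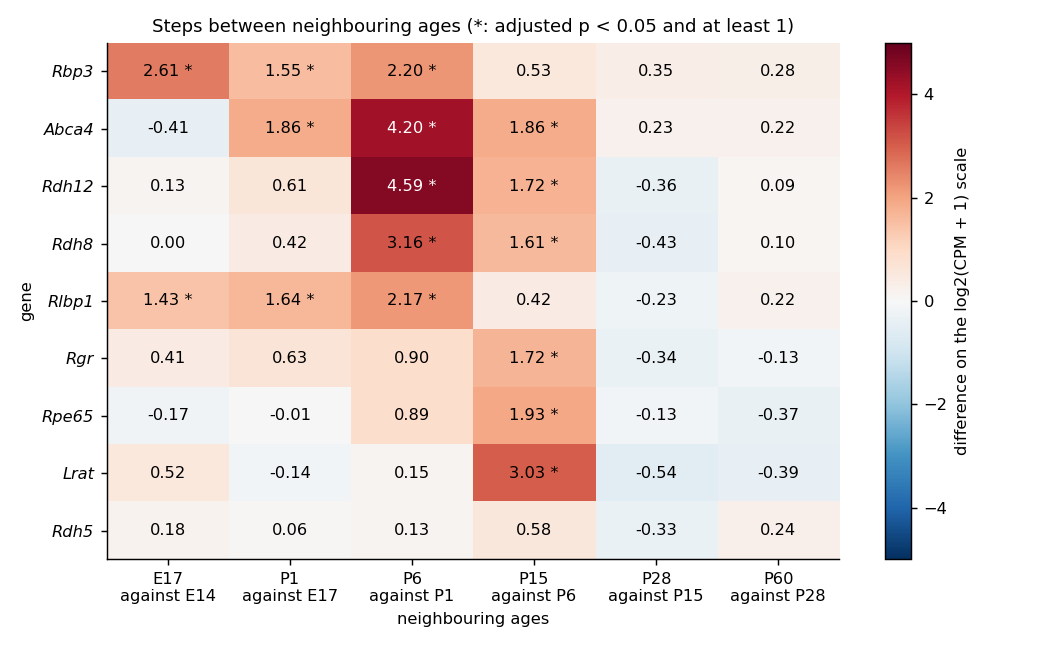
The heat map gives the difference in log2(CPM + 1) between each age and the one before (columns) for the 9 genes, with an asterisk where the step was called. Calls number 2, 3, 5, 6, 0 and 0 from the earliest step to the latest.

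**Figure D3:**
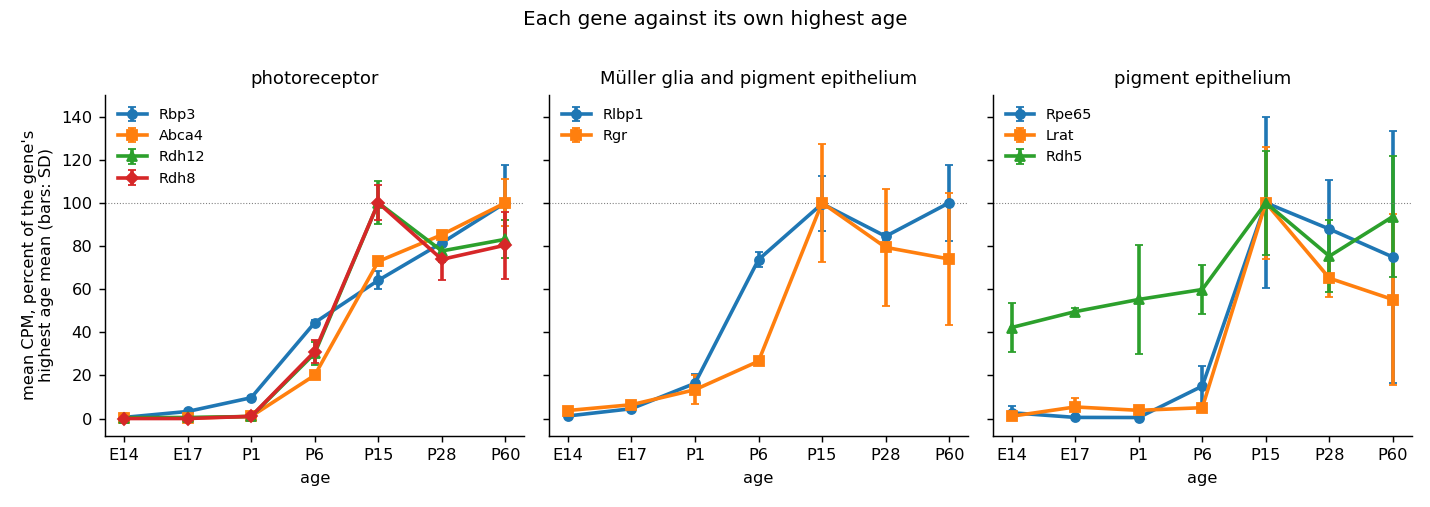
Mean CPM at each age is plotted as a percentage of the highest age mean of the same gene, in a panel for each known site, with bars for the SD between the 3 to 6 libraries. Rpe65 and Lrat stay low up to P6 and have their highest age mean at P15, at 6.55 and 12.6 CPM, and their P60 bars are wide.

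Levels of different genes were compared per kilobase of the longest coding transcript (CPM per kb, mean ± SD). At E14 Rbp3 led with 4.22 CPM per kb, followed by Rdh5 with 1.76, while the ranges of Rdh12 (0.724) and Rlbp1 (0.695) overlapped and those of Rgr, Rpe65, Lrat and Rdh8, at 0 to 0.175, overlapped in turn. At P15 the order was Rbp3 (520.2 ± 34.2), Rdh12 (174 ± 17.4), Abca4 (109.7 ± 3.31), Rlbp1 (58.6 ± 7.55) and Rdh8 (25.4 ± 2.04), each apart from the next. Below them Rgr (4.72 ± 1.29), Rdh5 (4.17 ± 1.01), Rpe65 (3.52 ± 1.40) and Lrat (2.36 ± 0.610) overlapped in turn. At P60 Rbp3 stood at 812 ± 142 CPM per kb, Abca4 at 151 ± 16.4 and Rdh12 at 145 ± 15.3 overlapped, and Rpe65 at 2.63 ± 2.06 and Lrat at 1.30 ± 0.939 were again lowest. Rpe65, Lrat and Rdh5 were thus the lowest per length at P15, P28 and P60, together with Rgr. Rlbp1, which like Rgr is known from Müller glia and pigment epithelium, stood above Rdh8 at these ages, with 49.7 CPM per kb at P28 and 58.9 at P60.

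Rpe65, Lrat and Rgr had the widest relative spread of the 9 genes among the 6 P60 libraries. The coefficient of variation was 78.2% for Rpe65, 72.2% for Lrat and 41.4% for Rgr, then 29.9% for Rdh5 and 10.6% to 19.4% for the 5 others. Counting error alone would give 16.3% for Rpe65, 13.7% for Lrat, 8.84% for Rgr, 16.1% for Rdh5 and 0.543% to 6.63% for the others, so that every gene varied by more than its counting error. The highest P60 library had 6.97 times the Rpe65 of the lowest, 6.68 times the Lrat and 3.30 times the Rgr. In all 3 genes replicate 2 was the highest and replicate 3 the lowest. Rbp3, Abca4 and Rdh12 were lowest in replicate 2 and highest in replicate 3, with 3363 and 5435 CPM for Rbp3.

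The signs of the deviations were also counted over all 14 mature libraries. These counts include P60 replicates 2 and 3, from which the pattern was read, and were not made over all features. The sign of the deviation from the age mean was the same for Rpe65 and Rgr in 13 of 14 mature libraries, for Rpe65 and Lrat in 11 and for Rpe65 and Rdh5 in 11. It was the same for Rpe65 and Abca4 in 7, for Rpe65 and Rlbp1 in 5 and for Rpe65 and Rbp3 in 5. Rdh12 and Rdh8 were not counted against Rpe65. The libraries share their depth and RNA between genes, so these counts describe them and carry no test. At P15, replicate 2 was the highest library for Rpe65, Lrat, Rgr and Rdh5. Without P60 replicates 2 and 3, a choice made after their values were seen, the P60 mean was 3.85 ± 1.33 CPM for Rpe65 (SD, n = 4), 5.62 ± 1.06 for Lrat and 15.5 ± 3.06 for Rgr. The mature difference was then 2.48 for Rpe65 (adjusted p = 1.33e-15), 2.78 for Lrat and 3.17 for Rgr, and P60 against P28 was not called for either Rpe65 (-0.49, adjusted p = 0.142) or Lrat (-0.48, adjusted p = 0.0917). With replicate 2 alone left out, that step moved from -0.37 to -0.65 for Rpe65 (adjusted p = 0.0445) and from -0.39 to -0.66 for Lrat (adjusted p = 0.0224), past the adjusted p and still under the minimum.

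**Figure D4:**
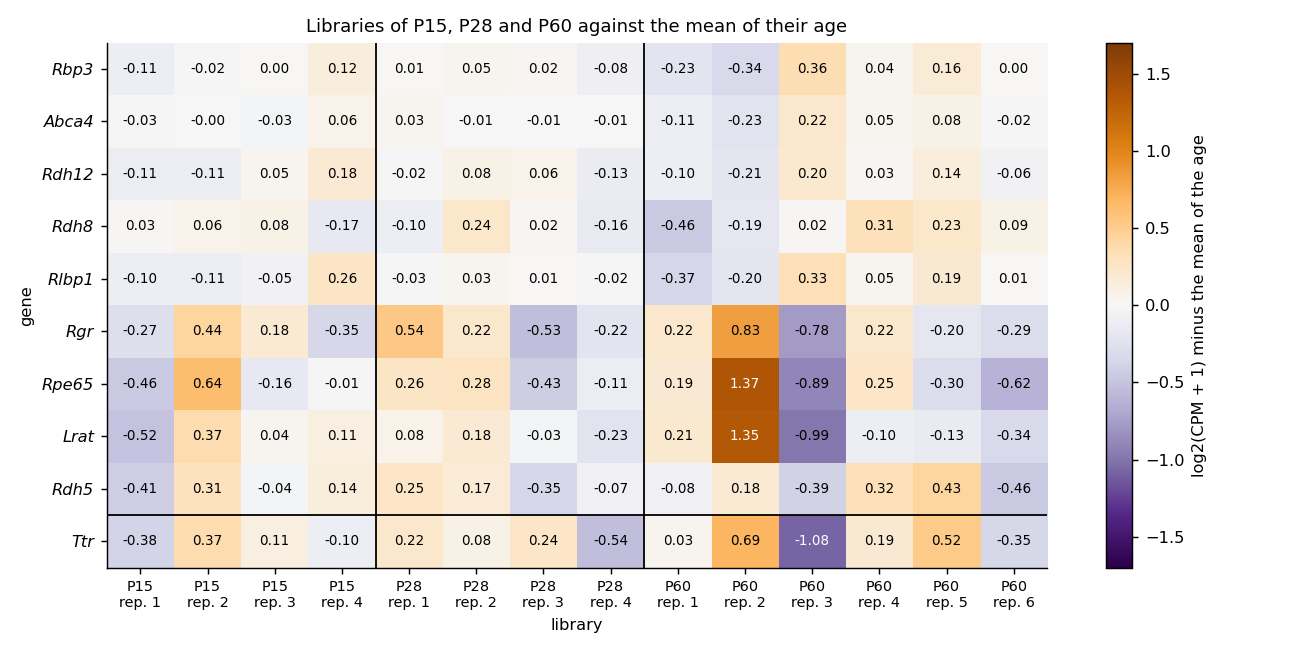
The heat map shows, for the 14 libraries of P15, P28 and P60 (columns), how far each of the 9 genes and Ttr lay from its age mean in log2(CPM + 1). In P60 replicate 2, Rpe65 is 1.37 and Lrat 1.35 above and Rbp3 0.34 below (-0.34); in P60 replicate 3, Rpe65 is at -0.89, Lrat at -0.99 and Rbp3 at 0.36.

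A list of 14 other pigment epithelium markers was read beside these genes, since tissue from that sheet can come along with a dissected retina. Its summed level was 49.8 to 84.6 CPM in the embryonic libraries (median 68.6) and 47.4 to 105 CPM in the mature ones (median 68.3). Of the 14, 12 passed the filter on low values (Mlana and Oca2 did not), 3 were called higher in the mature retina, 0 were called lower and 9 were not called, with a median difference of 0.26. The 3 were Ttr at 3.59 ± 0.20 (SE, adjusted p = 6.08e-17), a carrier of thyroxine and of retinol-binding protein, Mitf at 1.42 ± 0.15 (adjusted p = 4.23e-10), the master factor of pigment cells, and Dct at 1.32 ± 0.20 (adjusted p = 5.81e-07), a melanin enzyme. The summed list thus overlapped between the groups in which Rpe65 and Lrat did not. Its most abundant gene at every age except P15 was Rrh, a pigment-like opsin with age means of 31.3, 61.5, 62.8, 29.7, 24.5, 25.5 and 24.9 CPM from E14 to P60. Rrh was lower in every mature than in every embryonic library (mean 25.0 against 46.4 CPM), opposite to Ttr and Mitf, so that the sum joins genes that differed in opposite directions.

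At the step from P6 to P15, where Rpe65, Lrat and Rgr rose, limma called 0 of the 12 markers, with 3 at an unadjusted p under 0.05. Of all features 4.74% were called higher and 8.05% in either direction, so 0 of 12 is near that share. At low levels the added 1 CPM also understates change, so the count does not show that the markers stayed level. edgeR called 1, Ttr, for which limma gave 0.94 (adjusted p = 0.0170). Best1, a chloride channel of the pigment epithelium, averaged 1.73 CPM at P6 and 1.13 CPM at P15, and the melanin enzyme Tyr 2.78 and 2.94 CPM. Tyrp1 averaged 2.84 and 1.48 CPM and Pmel, the fibril protein of melanosomes, 3.24 and 2.64 CPM. Dct averaged 10.98 and 14.8 CPM at these ages, with overlapping libraries. Mlana, a defining marker of pigment cells, was at 0 in all 4 P15 libraries and never above 3 reads at any age.

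At other steps, limma called Ttr (2.61 ± 0.31) and Dct (1.17 ± 0.31) higher and Rrh (-1.05) and Ermn (-1.48) lower from P1 to P6. Mitf was called higher from E17 to P1 (1.15), Ermn higher (2.51) and the retinol receptor Stra6 lower (-1.48) from E14 to E17, and Dct (-1.55) and Pmel (-1.09) lower from P15 to P28. Slc16a8 stayed at age means of 1.79 to 3.09 CPM without a call, and Slc45a2 at up to 0.99 CPM.

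Among the P60 libraries, Ttr was highest in replicate 2 (21.3 CPM) and lowest in replicate 3 (5.52 CPM), the same libraries as for Rpe65, Lrat and Rgr. The deviation of Ttr had the same sign as that of Rpe65 in 11 of the 14 mature libraries, a count that includes these P60 replicates. Ttr was also highest in P15 replicate 2. Of the 12 tested markers, 7 were highest at P60 in replicate 2 (Ttr, Dct, Stra6, Mitf, Ermn, Tyr and Slc45a2) and 3 were lowest in replicate 3 (Ttr, Dct and Ermn). For Slc45a2 this was a tie at the floor, with 3 reads in both replicate 2 (0.422 CPM) and replicate 5 (0.412 CPM). How many of all features were highest in replicate 2 was not counted. The other 5 were highest elsewhere, Tyrp1 and Slc16a8 in replicate 4, Best1 in replicate 6, Pmel in replicate 5 and Rrh in replicate 1. Over the 12 markers, the median correlation of deviations from the age means was 0.29 with Rpe65, 0.27 with Lrat, 0.33 with Rgr, 0.02 with Rdh5 and -0.05 with Rlbp1 (27 libraries that share depth). Over all features these medians were 0.05, 0.09, 0.05, -0.0011 and -0.09. For Rbp3, Abca4, Rdh12 and Rdh8 the marker medians were -0.26, -0.19, -0.21 and -0.06, against -0.10, -0.04, -0.02 and -0.04 over all features. The correlations include P60 replicates 2 and 3, from which the pattern was read. The part of carried-over pigment epithelium in the levels of Rpe65, Lrat, Rgr and Rdh5 was not tested.

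**Figure D5:**
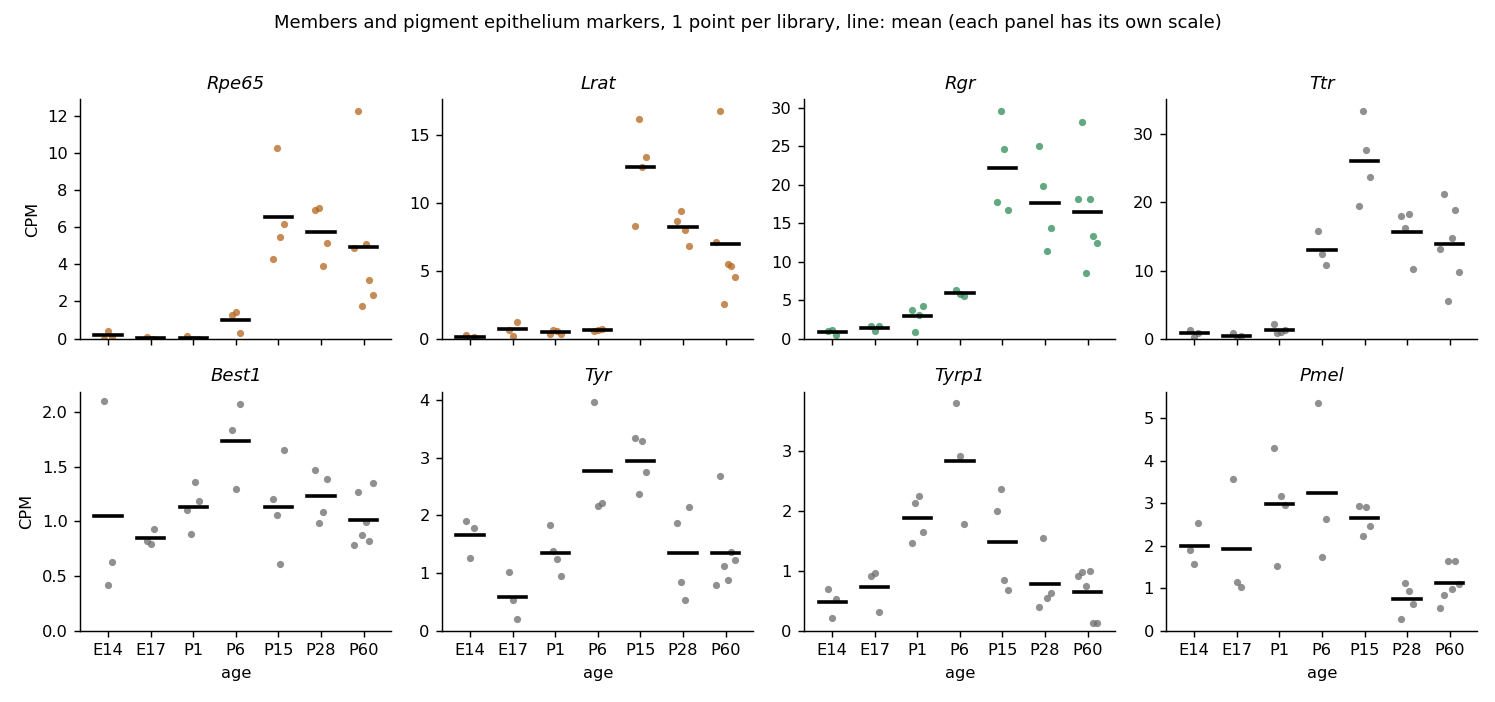
CPM is plotted for each library (points) over the 7 ages for Rpe65, Lrat, Rgr and the pigment epithelium markers Ttr, Best1, Tyr, Tyrp1 and Pmel, with a separate vertical axis per panel. Rpe65, Lrat and Rgr stand above all earlier libraries from P15 on, Ttr is already at 10.8 to 15.8 CPM at P6, and Best1, Tyr, Tyrp1 and Pmel have age means of 0.48 to 3.24 CPM throughout.

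Markers of the other cell types gave the setting. All 14 photoreceptor markers were called higher in the mature retina, with a median difference of 7.46, among them the cone transducin Gnat2 at 2.87, the factor Crx at 3.01 and the phosphodiesterase subunit Pde6a at 10.14. Of 11 Müller glia markers, 6 were called higher, 3 lower and 2 not called, with a median of 1.40, the highest being Abca8a (6.77) and the water channel Aqp4 (6.47) and the lowest Dapl1 (-2.66) and the factor Sox9 (-2.27). Lens and blood could also be carried over. Of 8 lens markers 5 were in the table, 3 were tested and limma called 0, with 2 at an unadjusted p under 0.05 and 1 called by edgeR, and of 6 blood and vessel markers limma called 1, Pecam1 (2.35). Summed lens markers gave 4.15 to 6.32 CPM in embryonic and 1.83 to 6.73 CPM in mature libraries, and blood and vessel markers 176 to 347 and 141 to 192 CPM. Most of the blood and vessel sum was Kdr, with a mean of 240 CPM in embryonic and 125 CPM in mature libraries. Kdr and Cldn5 had lower mean CPM in the mature libraries and the other blood and vessel markers higher means, so this sum also joins opposite directions.

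The genes of a further list, drawn up for retinoid handling, did not share one direction. Of 18 listed, 15 were tested, 4 were called higher, 3 lower and 8 not called, with a median difference of 0.39. The short-chain reductase Dhrs3 rose by 4.44 ± 0.089 (SE, adjusted p = 9.28e-29) and Adipor1, a receptor needed for photoreceptor lipids, by 2.52 ± 0.057. The retinoic acid binding proteins Crabp2 and Crabp1 were lower, with differences of -5.02 ± 0.15 (adjusted p = 4.64e-24) and -3.28 ± 0.14 (adjusted p = 5.41e-20). Summed, the list gave 255 to 368 CPM in embryonic and 531 to 805 CPM in mature libraries. Much of the higher mature sum was Adipor1, described above by its part in lipids, with means of 45.7 CPM in embryonic and 275 CPM in mature libraries. The sum is therefore not a measure of retinoid handling alone.

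The features most like each gene over the 27 libraries were found by Pearson's r of log2(CPM + 1) among 18226 features, as a description. They were Unc80, Elfn2 and Fam19a3 for Rbp3, Lbhd1, Pde6g and Slc17a7 for Abca4, Pex5l, Cnga1 and Unc13b for Rdh12, and Pex5l, Fam161a and Rdh12 itself for Rdh8, with leading r of 0.995 to 0.998. For Rlbp1 they were Ano2 (0.994), Atp1b2 and Gm38717, and for Rgr Inhba (0.967), Nap1l5 and Rgs7bp. The feature most like Rpe65 was Lrat (0.953), followed by Dusp3, whereas Lrat was most like C4bp-ps1 (0.963), Lrrtm4 and Dzank1. Rdh5 had the weakest likeness, to Cyp2s1 (0.83), Rgr (0.811) and Trf (0.797). Once age means were removed, the leading features were Fmn1 (0.883) for Rlbp1, Robo2 (0.811) for Rgr, Bhlhe22 (0.819) for Rpe65, 8430419K02Rik (0.794) for Lrat and 4930539J05Rik (0.795) for Rdh5. None of the features named here is on the pigment epithelium list. Only the leading features of 18226 are named, so this absence is not a test of pigment epithelium in these libraries. Lrat and Rgr, which are named, are themselves known from pigment epithelium. Over the 12 tested markers, correlations of deviations ran from -0.21 to 0.60 for Rpe65, -0.28 to 0.66 for Lrat and -0.05 to 0.67 for Rgr.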

How the data were processed

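Total RNA of whole retina was made into libraries with a SMARTer total RNA kit, and reads were aligned with STAR to mm10, as the labels and the methods of the study state. The authors deposited 1 table of CPM values with a column for each of the 27 libraries. The gene annotation and strand setting are not given in the sources used here, so reads of antisense neighbours cannot be told apart. Whole reads were recovered from the CPM steps (100.0% of values within 0.05 of a whole read).

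Log2(CPM + 1) was fitted over all 27 libraries with limma 3.58.1 (R 4.3.3), with a mean-variance trend and age as the factor, for the 31760 of 38168 features that reached 1 CPM in 3 or more libraries. The tests were two-sided, p-values were adjusted after Benjamini and Hochberg, and a call needed an adjusted p under 0.05 and an absolute difference of at least 1. Mature (P15, P28, P60) was compared with embryonic (E14, E17), and each age with the one before. The quasi-likelihood test of edgeR 4.0.16 on recovered reads was the alternative, and called 13568 features between mature and embryonic where limma called 9832. The steps were tested on simulated data. The floor of 3 reads covers counting error only. Values were summarised in Python 3.11.15 (pandas 2.3.3, numpy 2.4.6, scipy 1.17.1) and drawn with matplotlib 3.10.9.

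Named genes were the 9 members, the 3 features most like each, every pigment epithelium marker, and from the lists of photoreceptor, Müller glia, lens, blood and vessel markers and other retinoid genes the 2 with the highest and the 2 with the lowest difference. Some features that this rule takes are not reported here. The members and lists were chosen with earlier results of these data known. Crybb1, Crygd, Lim2 and Bco1 were not analysed here. Gene spans and lengths came from GENCODE vM21 (GRCm38) and promoters from RefSeq (GRCm38.p6).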

Additional observations from a re-analysis of the deposited data

Results flagged for a closer look

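In 4 of 36 groups of 4 to 6 libraries, a gene of the 9 had 1 library far from the others, with a gap to the nearest library above Dixon's 95% critical value for the group's range. The rate of about 1 in 20 by chance holds for independent, normally spread values. These genes share libraries, and a group with reads in only 1 library is always flagged. The 4 of 36 therefore cannot be set against that rate. Rpe65 at P60 was highest in replicate 2 at 12.3 CPM, where the next library had 5.08 CPM and the lowest 1.76 CPM. Lrat at P60 was highest in the same replicate 2 at 16.8 CPM, where the next had 7.08 CPM and the lowest 2.51 CPM. Rlbp1 at P15 was highest in replicate 4 at 149.7 CPM, where the others had 116 to 120.2 CPM. Rpe65 at P1 was highest in replicate 1 at 0.123 CPM, which is 1 read against 0 in the others and lies below the floor of 3 reads.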

How the results depend on the processing

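The 63 differences of the 9 genes were recomputed under alternatives, and no call was lost in any of them. The count of called genes between mature and embryonic libraries was 9 with edgeR and 8 with limma, and after P15 it was 1, Rbp3, at each of P28 against P15 and P60 against P28 when no minimum difference was asked. Leaving out 1 library added calls for Rgr at P6 against P1 (without P1 replicate 1 or 4) and for Rpe65 at that step (without P6 replicate 3). Reversals were seen in differences that were not called: Rdh12 at E17 against E14 (-0.052 with edgeR without E14 replicate 1, an alternative chosen after seeing the data, and -0.017 to 0.27 over libraries left out in turn), Rpe65 at P1 against E17 (0.0069 with a replicate block, -0.047 to 0.042), Rdh5 at P1 against E17 (-0.025 with a replicate block, -0.15 to 0.17), Rgr at P60 against P28 (-0.30 to 0.054), Rpe65 at P28 against P15 (-0.28 to 0.081) and Lrat at P1 against E17 (-0.37 to 0.10). The causes were not tested. Replicate numbers did not pair the samples, since same-numbered libraries of neighbouring ages had correlations of deviations of -0.096 to 0.093 over 20 pairs, and the replicate block changed no call of the 9 genes.

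Among the lists, pigment epithelium markers called between mature and embryonic numbered 3, against 5 with a pseudocount of 0.1, 5 with edgeR, 5 with edgeR without E14 replicate 1 and 7 without a minimum difference. Lens markers numbered 0, against 1, 1, 1 and 2 under the same 4 settings. Blood and vessel markers numbered 1, against 3 with edgeR, 3 with edgeR without E14 replicate 1 and 4 without a minimum, and other retinoid genes 7, against 13 without a minimum. Over all features, calls for P60 against P28 went from 144 to 756 (pseudocount of 0.1), 419 (edgeR) and 78 (replicate block), and to 465, 431, 48, 94 and 79 without P60 replicate 1, 2, 3, 4 and 5. The higher share of those calls was 16.7%, against 31.2% with median-of-ratios scaling and 43.7% with edgeR. With the pseudocount of 0.1 and with edgeR, calls went from 1143 to 1816 and 1804 (E17 against E14), from 585 to 974 and 1044 (P1 against E17) and from 2558 to 4051 and 4146 (P15 against P6), and with edgeR from 122 to 190 (P28 against P15). edgeR moved the median of all features by 0.10 between mature and embryonic. Depth limits values of about 3 reads and under, as in Rdh8 and Rpe65 in most libraries before P6 and Lrat in some.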
